A study of Homo sapiens with 9 samples.

Results

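The EGF family ligands and their ERBB receptors were followed in A498, a human cell line derived from clear cell renal cell carcinoma (ccRCC), in which BMAL1 or ARNT had been depleted. The members were the 10 rows of the gene count table named AREG, AREGB, EREG, BTC, HBEGF, TGFA and NRG1 for the ligands and EGFR, ERBB2 and ERBB3 for the receptors, out of 27671 genes in the table. They were chosen by name, with the values of AREG, AREGB and ERBB3 in shBMAL1 against shControl already known. For that reason the members' values in every comparison that uses the shBMAL1 libraries are given as a description without a p-value. The comparison of shARNT with shControl was tested, and it shares its shControl libraries with the comparison that led to the choice. The gene lists described further on were also chosen with earlier results of these data known. Their adjusted p-values are therefore not those of lists chosen blind to the data. Of the 10 members, 9 passed the filter on low counts and EREG did not. AREG and AREGB are annotated as near-identical copies on the genome build GRCh37 and are also given as a sum.

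The cells carried lentiviral short hairpin RNA (shRNA) constructs in the PLKO.1 vector and were kept under puromycin. The groups were a control shRNA (shControl, genotype given as WT), an shRNA against BMAL1 (shBMAL1, BMAL1 knockdown) and an shRNA against ARNT (shARNT, ARNT knockdown), with 3 biological replicates each and 9 libraries in all. The labels name 1 construct per group, so an effect of the hairpin itself and an effect of losing its target cannot be told apart. Polyadenylated RNA was sequenced, and the table gives reads per gene. Protein levels, ligand release and ERK activity were not measured in these libraries. The study asked how far BMAL1 takes part in transcription by HIF2α in these cells, whose HIF2α is stable because VHL is lost. ARNT is the established partner of HIF2α, and BMAL1 pairs with CLOCK to drive circadian transcription.

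Ligands of the EGF family are made as membrane-anchored precursors, and metalloproteases of the ADAM family release their soluble forms. AREG, EREG, BTC, HBEGF and TGFA bind EGFR, BTC, HBEGF and EREG also bind ERBB4, and the neuregulin NRG1 binds ERBB3 and ERBB4. Bound receptors pair with one another and signal through the RAS-ERK and PI3K-AKT cascades. ERBB2 has no known ligand and acts as a partner, while ERBB3 has little kinase activity of its own and recruits PI3K. TGFA is a known target of HIF2α in VHL-deficient renal carcinoma cells.

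Library totals were even, from 35269870 to 36099096 counts. Levels are given as CPM, counts per 1000000 counts of a library, with library sizes scaled by the TMM factors of edgeR. Log2 fold changes and their standard errors (SE) come from 1 edgeR quasi-likelihood fit over 15551 genes. A gene was called where its p, adjusted over all genes tested by the Benjamini-Hochberg method, was under 0.1. Each targeted transcript was lower in all 3 libraries of its depletion. BMAL1, listed as ARNTL, was 16.3 ± 0.395 CPM (SD, n = 3) in shControl and fell to 5.02 ± 0.789 CPM in shBMAL1 (adjusted p = 1.94e-11), and ARNT fell from 50.5 ± 2.24 to 9.46 ± 0.433 CPM in shARNT (adjusted p = 1.35e-17). ARNT was also lower in shBMAL1 (32.3 ± 1.52 CPM, adjusted p = 1.55e-08), and ARNTL was higher in shARNT (23.8 ± 1.30 CPM, adjusted p = 8.29e-06). The 5 genes listed for the kidney line, PAX8, PAX2, KRT8, KRT18 and VIM, were detected in every library. All 3 endothelial and all 3 leukocyte markers were under 1 CPM in every library. Replicate 1 of shControl stood apart from its group, with a chi-square per gene of 18.2 and 17.1 against the other 2 libraries, which differed from each other by 4.56. Without it, 8 of 9 members were called in shARNT against shControl, as with it.

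AREG and AREGB are annotated on GRCh37 as copies of one another, so how reads were assigned bears on their values, and their sequences are given first. Whether the cells hold 2 separate loci was not tested. AREG lies at chr4:75310853-75320722 and AREGB at chr4:75480629-75490486, both on the plus strand of GRCh37, with their starts 169776 bases apart, and all gene positions here are of that build. The annotated transcripts of 1234 and 1239 bases, from GENCODE release 44 lifted to GRCh37, differed at 1 aligned base, in the coding part of exon 1, and by 5 further bases at an end. Of the 1135 stretches of 100 bases in the AREG transcript, 100 bases being the read length, 1035 (91.2%) also occurred in AREGB. The 250 bases before each start were identical. The difference, G240A, is counted from 1 at the 5′ end of the AREG transcript with the AREG base first, and it is the capital letter in the 30 bases of exon 1 below, from chr4:75311077-75311106 and chr4:75480853-75480882.
AREG: gctaccgccggcgccGgtggtgctgtcgct
AREGB: gctaccgccggcgccAgtggtgctgtcgct
Most reads of either copy could therefore fit both. The row AREG held 65.1% of their summed counts in shControl (Wilson 95% interval 58.8% to 70.9%), 60.6% in shBMAL1 (59.6% to 61.7%) and 59.6% in shARNT (55.1% to 64.0%), and these intervals cover counting error only. The intervals of the 3 groups overlapped, and single libraries ranged from 57.0% to 68.3%. How reads that fit both copies were counted was not stated, and the 2 rows are described mainly by their sum.

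AREG, EREG and BTC lie within 488872 bases of one another on chromosome 4, and the bases before their starts are shown because the 3 ligands differed widely in level and in change. Each window holds the 250 bases before the gene start on the gene's strand, from RefSeq (GRCh38.p14), at chr4:74444886-74445135 (plus strand), chr4:74364895-74365144 (plus) and chr4:74794524-74794773 (minus). Capitals mark matches on either strand to ACGTG or GCGTG (the core of the hypoxia response element with either first base), CACGTG (the E-box bound by CLOCK and BMAL1, which contains ACGTG), TGACGTCA (the cAMP response element) and TGANTCA (the AP-1 element).
AREG: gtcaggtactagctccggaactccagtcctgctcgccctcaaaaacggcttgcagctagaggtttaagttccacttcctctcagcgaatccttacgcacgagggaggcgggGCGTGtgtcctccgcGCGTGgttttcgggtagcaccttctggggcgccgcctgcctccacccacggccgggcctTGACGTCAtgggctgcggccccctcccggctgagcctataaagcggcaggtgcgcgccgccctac
EREG: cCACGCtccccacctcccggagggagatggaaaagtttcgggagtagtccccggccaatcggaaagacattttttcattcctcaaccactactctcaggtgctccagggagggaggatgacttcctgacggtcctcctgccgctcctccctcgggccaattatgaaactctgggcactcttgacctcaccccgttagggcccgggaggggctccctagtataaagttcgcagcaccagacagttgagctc
BTC: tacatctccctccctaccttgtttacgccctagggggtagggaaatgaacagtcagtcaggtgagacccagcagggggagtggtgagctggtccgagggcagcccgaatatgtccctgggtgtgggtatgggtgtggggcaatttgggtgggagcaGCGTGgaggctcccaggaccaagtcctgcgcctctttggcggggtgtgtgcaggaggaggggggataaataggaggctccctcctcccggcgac
The AREG window held GCGTG from base -139 and again from base -124 before the start, and TGACGTCA from base -65. The EREG window held GCGTG from base -249, on the opposite strand, and the BTC window held it from base -94. GCGTG occurred in 32.2% of 35116 promoter windows of the same length, ACGTG in 18.5%, CACGTG in 6.3%, TGANTCA in 6.6% and TGACGTCA in 1.6%. The gene-start windows of TGFA, HBEGF and EGFR held none of these letters, and that of ERBB2 held TGANTCA from base -222. TGFA and EGFR each had a further window (GRCh38.p14) away from the gene start. That of TGFA, at chr2:70553447-70553696 (minus strand), held GCGTG from base -51. That of EGFR, at chr7:55109589-55109838 (plus), held TGANTCA from bases -232 and -136. These are matches of letters, and 7 of the 10 members had an entry. AREGB, NRG1 and ERBB3 had none.

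In shARNT against shControl, 4 members rose, 4 fell and 1 was not called. With AREG and AREGB merged into 1 row, 3 rose and 4 fell of 8 tested. The ligands TGFA fell and NRG1, HBEGF, AREG and AREGB rose, while the receptors EGFR, ERBB3 and ERBB2 fell. The 8 called of 9 tested compare with 81.8% called over all 15551 genes (40.5% higher and 41.3% lower), so a called gene was the usual outcome in this contrast. Of all called genes, 49.5% were higher, and 60.5% were under scaling by library size alone. The median log2 fold change of the 9 members was 0.62, against -0.01 for all genes, whose median absolute change was 0.66.

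In shBMAL1 against shControl, 8 of 9 members were past the same threshold, 6 higher and 2 lower, beside 63.4% of all genes (31.9% higher and 31.5% lower), with a median of 1.08 against 0.00 for all genes. In the direct contrast of shARNT with shBMAL1, which uses no control library, 8 of 9 were past it, 4 higher and 4 lower, beside 81.2% of all genes (40.1% higher and 41.1% lower). Nothing is read from these counts, since values of the shBMAL1 libraries entered the choice of members.

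**Figure D1:**
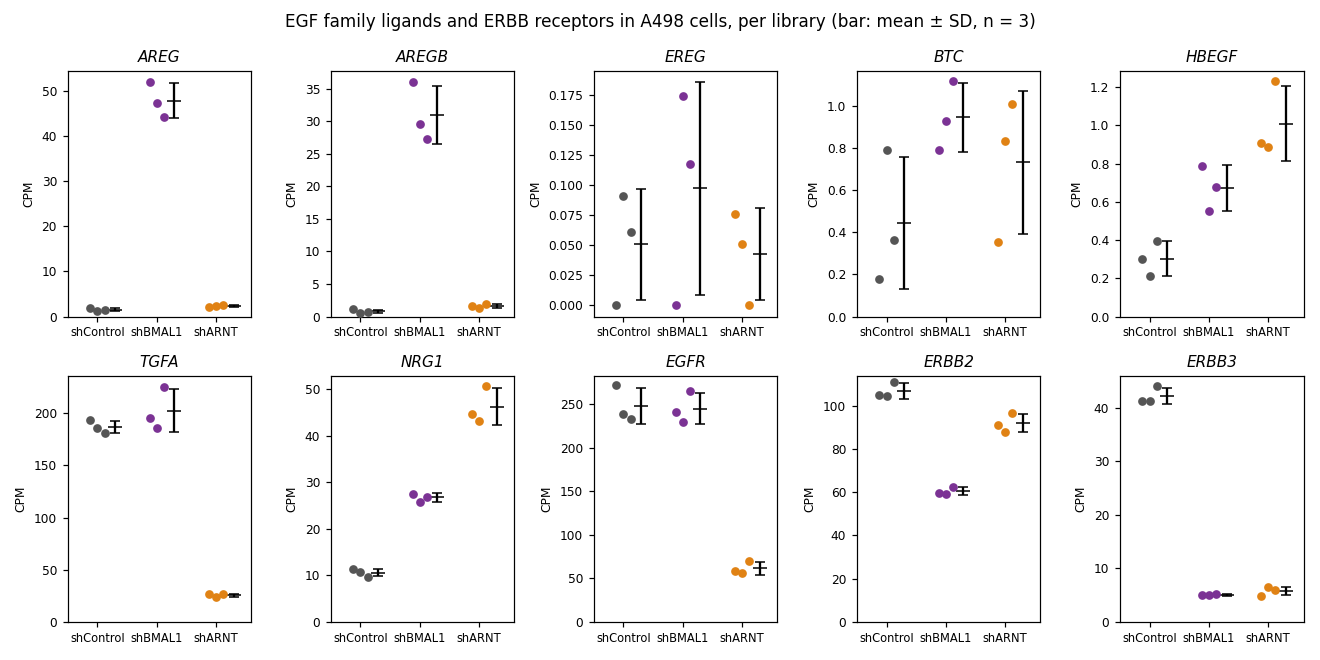
Levels of the 10 members in CPM on linear axes (y, a separate scale per gene) in the shControl, shBMAL1 and shARNT libraries (x), with 1 point per library and a bar at the mean ± SD (n = 3). AREG and AREGB stand out in shBMAL1, TGFA and EGFR drop in shARNT, ERBB3 is low in both depletions, and NRG1 rises from 10.6 to 26.7 and 46.2 CPM.

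AREG, which encodes amphiregulin, had 63, 43 and 45 counts in the shControl libraries, 1773, 1628 and 1501 in shBMAL1, and 86, 95 and 98 in shARNT. AREGB had 37, 20 and 24, then 1230, 1021 and 930, then 63, 52 and 74. Both rows were thus highest in the 3 shBMAL1 libraries, and neither row overlapped between any pair of groups. Lack of overlap within a single contrast was common over all 15551 genes. It held for 79.8% in shARNT against shControl, 62.2% in shBMAL1 against shControl and 79.6% in shARNT against shBMAL1. The same shares stand beside each statement on overlap of a member below. The sum was 3.00, 1.91 and 2.09 CPM in shControl, 87.8, 76.9 and 71.5 CPM in shBMAL1, and 3.76, 3.72 and 4.33 CPM in shARNT. The summed level was 33.6-fold higher in shBMAL1 than in shControl (log2 fold change 5.07, SE 0.116). Of 15551 genes, 8 rose further than AREG and 6 further than AREGB in that comparison.

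In shARNT the sum was 1.68-fold higher than in shControl, which is 0.75 on the log2 scale (SE 0.154, adjusted p = 0.000174 by the quasi-likelihood test of edgeR, which gave every adjusted p below too). AREG alone gave 0.62 (adjusted p = 0.0013) and AREGB alone 0.96 (adjusted p = 0.000961), and 3683 genes rose further than AREG. Both depletions were therefore above shControl for amphiregulin RNA, but by unlike amounts, and shARNT set directly against shBMAL1 gave -4.32 (SE 0.105). Over the alternatives tried, the sum in shARNT against shControl stayed between 0.62 and 0.99 with adjusted p from 1.63e-07 to 0.00248. The largest of the values with a library left out was that without replicate 1 of shControl, at 0.97.

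EREG, which encodes epiregulin and lies at chr4:75230862-75254466 next to AREG, was at the limit of detection throughout. It had 0, 3 and 2 counts in shControl, 0, 6 and 4 in shBMAL1 and 3, 2 and 0 in shARNT, so it was not tested and no fold is given. BTC, which encodes betacellulin (chr4:75669969-75719733, minus strand), had 6, 26 and 12 counts in shControl, 27, 32 and 38 in shBMAL1 and 14, 33 and 40 in shARNT. The shControl and shARNT libraries overlapped for BTC, and its log2 fold change in shARNT was 0.72 (SE 0.452, interval -0.17 to 1.60, adjusted p = 0.153). That value depended on single libraries: it was 1.42 without replicate 2 of shControl (adjusted p = 0.0176), 1.05 without replicate 1 of shARNT (adjusted p = 0.0368) and 0.34 without replicate 1 of shControl. In shBMAL1 the BTC difference was 1.08 (SE 0.446), and its libraries also overlapped those of shControl in CPM, narrowly. The difference ranged from 0.71 without replicate 1 of shControl to 1.79 without replicate 2. It fell short of the threshold of 0.1 without replicate 1 and without replicate 3 of shControl.

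HBEGF encodes heparin-binding EGF-like growth factor (chr5:139712428-139726188, minus strand) and was also scarce. It had 10, 7 and 13 counts in shControl, 27, 19 and 23 in shBMAL1 and 36, 35 and 49 in shARNT. No pair of groups overlapped in CPM, beside the shares over all genes given for AREG. In shARNT it rose 3.31-fold (log2 fold change 1.73, SE 0.353, adjusted p = 0.000172). In shBMAL1 the difference was 1.14 (SE 0.375). The direct contrast of 0.58 had an interval of -0.03 to 1.19, so an order between the depletions was not clear at this depth.

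TGFA encodes transforming growth factor alpha (chr2:70674416-70781325, minus strand) and was the ligand with the highest level per length in the control cells, as given further on. It stood at 193, 186 and 181 CPM in shControl, 196, 186 and 226 CPM in shBMAL1, and 26.6, 23.9 and 26.2 CPM in shARNT. The shControl and shBMAL1 libraries overlapped, whereas every shARNT library lay far below both. TGFA fell in shARNT to 13.7% of its control level (log2 fold change -2.87, SE 0.065, adjusted p = 5.68e-19), and 453 of 15551 genes (2.91%) fell further. In shBMAL1 the difference was 0.12 (SE 0.0574), with an interval of 0.00 to 0.23, and it was 0.03 without replicate 3 of shBMAL1. The direct contrast of the depletions was -2.99 (SE 0.0651).

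NRG1 encodes neuregulin 1 (chr8:31496738-32713184, plus strand). Its level was 11.3, 10.8 and 9.69 CPM in shControl, 27.5, 25.8 and 26.9 CPM in shBMAL1 and 44.7, 43.2 and 50.8 CPM in shARNT. The groups formed 3 separate steps in this order, with no overlap, beside the shares over all genes given for AREG. In shARNT NRG1 rose 4.37-fold (log2 fold change 2.13, SE 0.0765, adjusted p = 9.83e-16), and 259 genes rose further. In shBMAL1 it was 2.53-fold higher (1.34, SE 0.0788), and shARNT exceeded shBMAL1 by 0.79 (SE 0.0693). NRG1 has many annotated isoforms, which a count per gene does not separate, and its exons overlap same-strand genes that were not rows of the table.

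**Figure D2:**
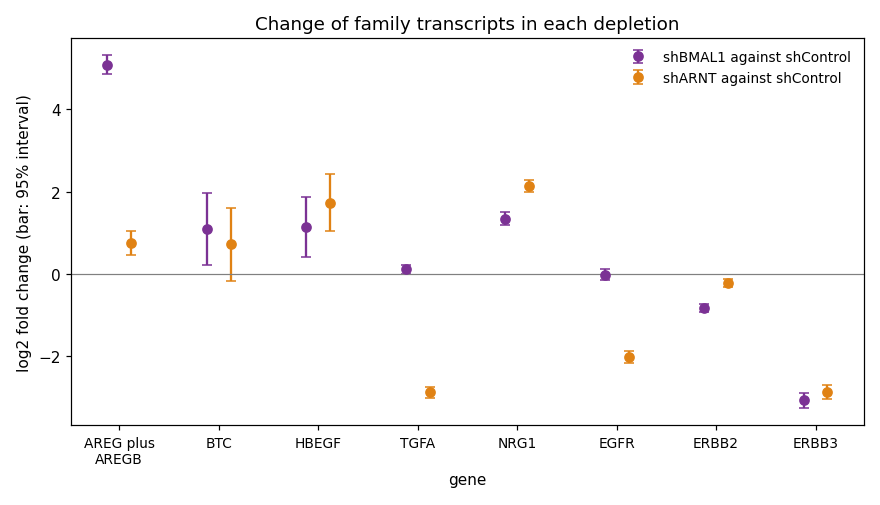
Log2 fold changes (y) of the 8 members or sums that were tested (x, AREG and AREGB as their sum) for shBMAL1 against shControl and shARNT against shControl, with bars at the 95% interval. The sum of AREG and AREGB stands at 5.07 in shBMAL1 and 0.75 in shARNT, TGFA and EGFR lie near 0 in shBMAL1 and at -2.87 and -2.01 in shARNT, and ERBB3 lies near -3 in both. Both comparisons use the same control libraries.

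Among the receptors, EGFR (chr7:55086710-55279321, plus strand) stood at 271, 239 and 233 CPM in shControl, 241, 229 and 264 CPM in shBMAL1 and 57.8, 56.4 and 70.3 CPM in shARNT. It was unlike AREG in that the shControl and shBMAL1 libraries overlapped, with a difference of -0.02 (interval -0.15 to 0.12). In shARNT, EGFR fell to 24.8% of the control level (log2 fold change -2.01, SE 0.0741, adjusted p = 1.49e-15). EGFR and its ligand TGFA thus both fell in shARNT, and each stood lower there than in shBMAL1, with direct contrasts of -1.99 and -2.99. EGFR-AS1, an antisense gene whose exons overlap those of EGFR, showed 16.3 ± 1.16 CPM in shControl, 16.4 ± 2.09 in shBMAL1 and 3.49 ± 0.223 in shARNT. The library was stranded, but whether strand was used in counting was not stated, so reads of the 2 genes may not be separate.

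ERBB2 (chr17:37844167-37886679, plus strand) stood at 105, 104 and 111 CPM in shControl, 59.7, 59.2 and 62.5 CPM in shBMAL1 and 91.3, 88.1 and 96.6 CPM in shARNT. It was lowest in shBMAL1, at 56.6% of control (-0.82, SE 0.0485). No groups overlapped, beside the shares over all genes given for AREG. In shARNT the change was small (log2 fold change -0.22, SE 0.0473, adjusted p = 0.000326). Its sign depended on the scaling, since it was 0.020 (adjusted p = 0.698) under library size alone, a scaling that moved the median of all genes in this contrast by 0.24. ERBB2 shares exonic bases with MIEN1 and PGAP3 on the opposite strand. MIEN1 was 25.0 ± 0.626, 31.5 ± 2.33 and 36.6 ± 1.10 CPM in shControl, shBMAL1 and shARNT, and PGAP3 was 20.1 ± 0.254, 15.3 ± 0.810 and 10.1 ± 0.729 CPM.

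ERBB3 (chr12:56470583-56497289, plus strand), the receptor for neuregulins, was 41.3, 41.3 and 43.96 CPM in shControl. It was 4.97, 4.93 and 5.17 CPM in shBMAL1 and 4.87, 6.47 and 5.95 CPM in shARNT. All 6 depleted libraries lay well below the 3 controls, and the depletions overlapped each other. ERBB3 fell in shARNT to 13.7% of control (log2 fold change -2.87, SE 0.0889, adjusted p = 8.47e-17) and was at 11.9% in shBMAL1 (-3.07, SE 0.0921), where 51 of 15551 genes lay further down. The direct contrast was 0.20, with an interval of -0.01 to 0.40. NRG1 and ERBB3, a ligand and its receptor, therefore moved in opposite directions in shARNT, and stood on opposite sides of control in shBMAL1.

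Of the 4 listed fibroblast markers, COL1A1 and PDGFRB moved alongside ERBB3. The summed level of the list ran from 231 to 245 CPM over the shControl libraries, from 34.2 to 37.3 over shBMAL1 and from 40.7 to 50.7 over shARNT. Nearly all of it was COL1A1, whereas COL1A2 and DCN were under 1 CPM in every library. PDGFRB, the other marker of the list, was 2.20 ± 0.272 CPM in shControl, 0.439 ± 0.0794 CPM in shBMAL1 and 0.168 ± 0.0145 CPM in shARNT, and so was also lower in both depletions. The list for the kidney line, whose sum is mostly VIM and keratins, was 7653 to 7702, 5664 to 6134 and 2048 to 2206 CPM. VIM alone was 5974 ± 28.8, 4309 ± 263 and 812 ± 28.6 CPM, while PAX8 was 36.0 ± 1.92, 40.8 ± 3.69 and 100.3 ± 5.65 CPM and KRT18 was 566 ± 1.78, 472 ± 16.1 and 563 ± 23.1 CPM, so the sum does not speak for each marker. The part of either list in the result for ERBB3 was not tested. Fewer cells of a type and less RNA per cell cannot be told apart in bulk RNA.

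To compare levels between genes, CPM was divided by the length of the longest annotated coding transcript. On this scale of CPM per kilobase, shControl cells had TGFA at 45.4, EGFR at 25.0, ERBB2 at 22.3, ERBB3 at 7.51, the sum of AREG and AREGB at 1.89 and NRG1 at 0.845. In shBMAL1 the sum of AREG and AREGB was at 63.8 (57.9 to 71.2 over the libraries) and TGFA at 49.2 (45.2 to 54.8), followed by EGFR at 24.7, ERBB2 at 12.6, NRG1 at 2.13 and ERBB3 at 0.895. In shARNT the order was ERBB2 at 19.2, TGFA and EGFR both at 6.21, NRG1 at 3.69, the sum of AREG and AREGB at 3.19 and ERBB3 at 1.03. TGFA and EGFR overlapped in shARNT, and so did NRG1 and the sum of AREG and AREGB. These orders depended on the length used. NRG1 was divided by 12518 bases, its longest coding transcript among 35 annotated transcripts, and the alternative below was longer still, at 21372 bases. A shorter NRG1 isoform would give a higher value, and none was tried, so the place of NRG1 in these orders is uncertain. With the length of all annotated exons, an alternative chosen after seeing the data, the sum and TGFA in shBMAL1 were 43.5 to 53.5 and 37.8 to 45.9 CPM per kilobase and overlapped. On the same length TGFA (4.85 to 5.42) lay above EGFR (3.54 to 4.41) in shARNT without overlap, and the mean of the sum of AREG and AREGB (2.40) lay above that of NRG1 (2.16) there, with overlapping libraries.

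**Figure D3:**
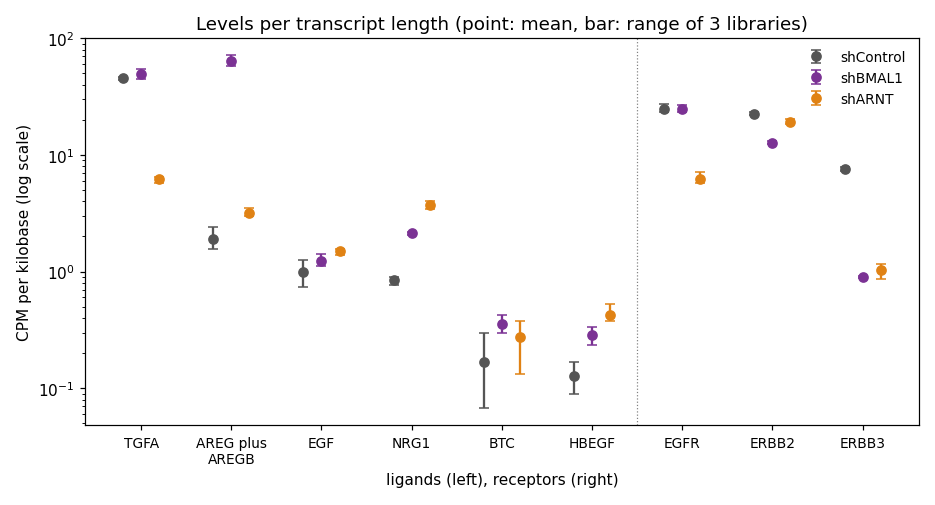
Levels in CPM per kilobase of the longest coding transcript (y, log scale) of ligands (left) and receptors (right) in each group. Points are means and bars span the 3 libraries. TGFA leads the ligands in shControl at 45.4, the sum of AREG and AREGB reaches 63.8 in shBMAL1, and ERBB2 at 19.2 is the highest value in shARNT.

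The family genes outside the 10 members form a list of 5 ligands and 1 receptor. Of these 6 genes, 5 were tested, and 3 rose and 1 fell in shARNT, while 3 rose and none fell in shBMAL1. NRG2, a neuregulin, stood at 2.33 ± 0.271 CPM in shControl and rose in both depletions. It reached 6.12 ± 0.233 CPM in shBMAL1 (log2 fold change 1.39, adjusted p = 6.55e-08) and 6.01 ± 0.704 CPM in shARNT (1.37, adjusted p = 2.61e-08). EGF, the founding ligand, rose in shARNT from 6.36 ± 1.64 to 9.66 ± 0.690 CPM (0.60, adjusted p = 0.000917) and in shBMAL1 to 7.86 ± 1.10 CPM (0.31, adjusted p = 0.0895), where its libraries overlapped those of shControl.

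NRG3 was scarce, with 29, 18 and 34 counts in shControl, 26, 34 and 42 in shBMAL1 and 2, 6 and 1 in shARNT, and it fell in shARNT (-3.37, SE 0.515, adjusted p = 5.81e-06). NRG4 rose in shBMAL1 (0.93, SE 0.364, adjusted p = 0.0348), although its libraries overlapped those of shControl, and had a difference of -0.02 in shARNT. ERBB4, the other neuregulin receptor, had at most 27 counts in any library. It was called higher in shARNT (1.33, SE 0.659, adjusted p = 0.0711), although its shARNT and shControl libraries overlapped. EPGN, the ligand epigen, had 4 counts in 1 library and none in the other 8. The counts of this list stand beside the same 81.8% and 63.4% called over all genes.

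The proteins that release the ligands were described by a list of ADAM proteases, the iRhoms RHBDF1 and RHBDF2, the iRhom partner FRMD8 and the inhibitor TIMP3. TIMP3 was under the filter. Of the other 9 genes, 3 rose and 6 fell in shARNT (median -0.56), and 6 rose and 1 fell in shBMAL1 (median 0.25). ADAM12, at 64.2 ± 2.84 CPM in shControl, went in opposite directions. It was 135 ± 9.54 CPM in shBMAL1 (1.08, adjusted p = 2.1e-12) and 16.8 ± 0.837 CPM in shARNT (-1.93, adjusted p = 1.6e-16). ADAM15 did the same on a smaller scale, with 354 ± 5.53, 491 ± 15.7 and 223 ± 5.69 CPM in shControl, shBMAL1 and shARNT (0.47, adjusted p = 1.14e-09, and -0.67, adjusted p = 1.2e-12). FRMD8 rose in shARNT, from 9.66 ± 0.299 to 34.6 ± 1.29 CPM (1.84, adjusted p = 1.41e-14), and stood at 9.58 ± 0.861 CPM in shBMAL1. ADAM17, the main sheddase of AREG and TGFA, was chosen after its values were seen. It rose in shARNT (0.53, adjusted p = 3.52e-10) and fell in shBMAL1 (-0.18, adjusted p = 0.00115).

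Among 17 adaptors and members of the RAS-ERK cascade, 9 rose and 6 fell in shARNT (median 0.13), and 6 rose and 8 fell in shBMAL1 (median -0.04). GAB1, an adaptor that links receptors to PI3K, fell in both, from 15.5 ± 1.14 CPM to 6.70 ± 0.716 CPM in shARNT (-1.21, adjusted p = 5.83e-10) and 11.1 ± 0.508 CPM in shBMAL1 (-0.48, adjusted p = 0.000249). MAPK3, which encodes ERK1, fell in shARNT from 165 ± 2.61 to 80.5 ± 0.463 CPM (-1.04, adjusted p = 1.44e-14). NRAS, one of the RAS genes, rose in shBMAL1 from 33.1 ± 0.709 to 46.7 ± 0.0579 CPM (0.50, adjusted p = 2.16e-07) and fell in shARNT (-0.95, adjusted p = 6.59e-12).

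Of 10 genes of the PI3K-AKT cascade, 5 rose and 2 fell in shARNT (median 0.09), and 6 rose and 2 fell in shBMAL1 (median 0.28). PIK3CB, a catalytic subunit of PI3K, rose in both, by 0.48 in shBMAL1 (adjusted p = 5.9e-06) and by 1.11 in shARNT (adjusted p = 5e-12). PIK3CA, another catalytic subunit, fell in shBMAL1 (-0.70, adjusted p = 7.74e-07) and rose in shARNT (0.43, adjusted p = 5.49e-05).

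The receptor negative regulators held 11 genes, of which 5 rose and 4 fell in shARNT (median -0.04) and 5 rose and 6 fell in shBMAL1 (median -0.25). ERRFI1, also known as MIG6, encodes an inhibitor of EGFR kinase activity and is itself induced by EGFR signalling. It was at 622 ± 8.48 CPM in shControl, 390 ± 6.02 CPM in shBMAL1 and 70.6 ± 5.17 CPM in shARNT, so it fell in both (-0.67, adjusted p = 4.49e-11, and -3.14, adjusted p = 9.03e-22). LRIG1, which promotes the degradation of ERBB receptors, rose in both, by 0.81 in shBMAL1 (adjusted p = 1.22e-05) and by 0.97 in shARNT (adjusted p = 3.84e-07). Its relative LRIG3 rose in shBMAL1 (0.87, adjusted p = 2.38e-10), with a difference of -0.11 in shARNT that was 0.13 under library size alone.

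Genes that report on ERK activity, such as dual-specificity phosphatases, Sprouty genes and ETS factors, formed a list of 8. In shARNT 3 rose and 3 fell (median -0.02), and in shBMAL1 5 rose and 1 fell (median 0.91). ETV4, an ETS factor, was 18.0 ± 0.963 CPM in shControl and moved to 33.3 ± 1.54 CPM in shBMAL1 (0.89, adjusted p = 4.88e-09) and 4.38 ± 0.475 CPM in shARNT (-2.04, adjusted p = 3.3e-14). DUSP5, a nuclear ERK phosphatase, rose in both, by 0.92 in shBMAL1 (adjusted p = 1.03e-09) and by 1.82 in shARNT (adjusted p = 2.63e-15). DUSP4, of the same family, rose in shBMAL1 from 3.44 ± 0.341 to 11.6 ± 0.277 CPM (1.75, adjusted p = 1.21e-10) and was 3.26 ± 0.196 CPM in shARNT. PHLDA1 rose in shBMAL1 from 46.2 ± 0.754 to 99.5 ± 4.94 CPM (1.10, adjusted p = 2.66e-13) and was 47.5 ± 1.01 CPM in shARNT. DUSP6, chosen after its values were seen, rose by 2.78 in shBMAL1 (adjusted p = 8.22e-11) and by 1.41 in shARNT (adjusted p = 1.6e-06). The remaining genes of the list, also added after their values were seen, were SPRY4, SPRY2 and ETV5. SPRY4 fell in both, by -0.70 in shBMAL1 (adjusted p = 0.000135) and -1.13 in shARNT (adjusted p = 1.91e-07). SPRY2 stood at 0.23 in shBMAL1, not called, and fell in shARNT (-1.17, adjusted p = 4.78e-07). ETV5 stood at -0.02 in shBMAL1, not called, and rose in shARNT (1.01, adjusted p = 1.52e-12).

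Over all 6 pathway lists, 60 of 62 genes were tested, and 50 (83.3%) were called in shARNT against shControl and 49 (81.7%) in shBMAL1 against shControl. These shares stand beside 81.8% and 63.4% of all genes. In the direct contrast of shARNT with shBMAL1, 51 were called (85%), of which 21 were higher and 30 lower in shARNT, beside 81.2% of all genes. Under scaling by library size alone the 28 higher and 22 lower in shARNT against shControl became 37 and 18, and the negative regulators alone went from 5 higher and 4 lower to 8 and 1. The ligand-shedding list went from 3 and 6 to 4 and 5. Between the depletions the split became 26 higher and 23 lower. Where a change of at least 1.5-fold was also asked for, 29 remained in shARNT and 15 in shBMAL1.

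**Figure D4:**
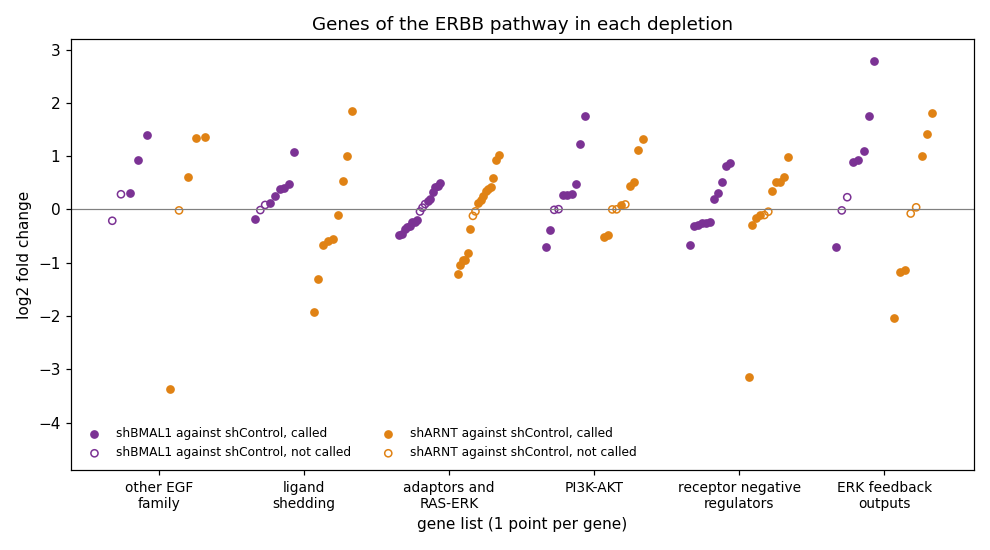
Log2 fold changes (y) of every tested gene of the 6 pathway lists (x), 1 point per gene, sorted within each list and depletion. Filled points passed an adjusted p under 0.1 and open points did not. ERRFI1 lies at -3.14 and NRG3 at -3.37 in shARNT, and the highest point of all is DUSP6 at 2.78 in shBMAL1.

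The genes around AREG, EREG and BTC on chromosome 4 were examined next, within 500000 bases on either side of the 3 ligands. Of 9 such genes, 4 had enough counts to be tested, and all 4 rose in shBMAL1, while 2 rose and 1 fell in shARNT. Over all genes, 31.9% were called higher in shBMAL1, and 40.5% higher and 41.3% lower in shARNT. CXCL1, a chemokine gene, had 16, 16 and 15 counts in shControl, 67, 54 and 84 in shBMAL1 and 40, 24 and 31 in shARNT, and it rose by 2.07 in shBMAL1 (adjusted p = 4.47e-06) and by 0.75 in shARNT (adjusted p = 0.0368). CXCL2, of the same family, rose in shBMAL1 (1.32, adjusted p = 3.03e-05) and fell in shARNT (-1.44, adjusted p = 6.21e-05). CXCL3 rose in shBMAL1 by 2.11 (adjusted p = 0.00136) from 4 to 5 counts per control library. MTHFD2L, a mitochondrial folate enzyme gene, rose in both, by 1.47 in shBMAL1 (adjusted p = 8.62e-06) and 0.60 in shARNT (adjusted p = 0.022). PF4 and CXCL5 had no count in any library, and PPBP, EPGN and PARM1 were under the filter. These were low levels, with CXCL2 at 2.82 ± 0.325 CPM and MTHFD2L at 3.05 ± 0.254 CPM in shBMAL1.

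The genes whose pattern over the 9 libraries lay closest to that of amphiregulin RNA and of ERBB3 were sought among 11220 genes. Likeness was the root mean square (RMS) difference of log2 CPM, each gene taken relative to its shControl mean. Closest to the sum of AREG and AREGB was ANXA10, an annexin, at an RMS of 0.71, with log2 fold changes of 5.42 in shBMAL1 and 1.89 in shARNT. It was followed by RRAD at 0.83, AGR2 at 0.89, BIRC3 at 1.01 and PLAT at 1.16, of which RRAD stood at 3.71 and 1.06 and AGR2 at 3.75 and 0.22. Closest to ERBB3 was SLC8A1, a sodium-calcium exchanger, at an RMS of 0.35, with -2.78 in shBMAL1 and -2.45 in shARNT. COL1A1 followed at 0.37, ALOX5 at 0.40, APOE at 0.41 and FGFR3 at 0.55, all lower in both depletions. FGFR3, another receptor tyrosine kinase, stood at -2.55 in shBMAL1 and -3.68 in shARNT. For the sum of AREG and AREGB no gene came as close as those nearest to ERBB3, but the measure is not scaled by the size of a change. In shBMAL1 the sum changed by 5.07 and ERBB3 by -3.07, so these distances do not rank how particular the patterns are. EREG, at the limit of detection, was left out of this search.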

How the data were processed

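RNA of 9 A498 libraries was read on a DNBSEQ platform from stranded mRNA libraries, and 1 deposited table gives expected counts per gene. These expected counts were made by the authors as total reads per gene, without normalization. The submitters' processing notes name STAR, DESeq2 and hg38, whereas the study's methods name SeqMan NGen, ArrayStar and GRCh37. AREGB is a row of its own, as in the GRCh37 annotation used here. The annotation release, the use of strand and the treatment of reads with several alignments are not given in the sources used here.

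A value of 0.05 stood for 0. Values were rounded, and rows with the same name (45 names) were summed, which left 27671 genes of 27716 rows. No member had a fractional value, and fractional values held 3.47% to 4.43% of the reads of a library. All 9 libraries entered 1 fit by group in edgeR 4.0.16 (R 4.3.3) with TMM scaling, filterByExpr, glmQLFit and glmQLFTest, and Benjamini-Hochberg adjustment was made over 15551 genes. DESeq2 1.42.0 was an alternative. Intervals are 95% intervals from the SE. The computations were tested on simulated data.

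Members and lists were chosen with earlier results of these data known. Besides the members, the rule named, per list and depletion, the 2 called genes with the largest change among those whose mean log2 CPM reached 2 and whose groups did not overlap, all other family genes, and the 5 genes nearest in pattern to each of the sum of AREG and AREGB and ERBB3. The values of 1 gene that this rule selects were left out. Genes near AREG, EREG and BTC were described by position. Replicates are labelled as biological, and the p-values judge a difference between groups against the spread between these libraries.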

Additional observations from a re-analysis of the deposited data

Results flagged for a closer look

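The response to the 2 depletions differed for many of the genes described, by the direct contrast of shARNT with shBMAL1, which contains no control library. Log2 values below are shARNT minus shBMAL1. Those of genes outside the members each passed an adjusted p of 0.1 in the edgeR fit. Those of members are a description only, since values of the shBMAL1 libraries entered their choice. Among the ligands the difference was -4.34 for AREG, -4.28 for AREGB, -4.32 for their sum, -2.99 for TGFA, 0.58 for HBEGF and 0.79 for NRG1. Among the receptors it was -1.99 for EGFR, 0.61 for ERBB2 and 0.20 for ERBB3. The intervals of HBEGF (-0.03 to 1.19) and ERBB3 (-0.01 to 0.40) left their order between the depletions unclear. Both values also fell short of the threshold of 0.1 under several alternatives.

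Of the other genes, EGF differed by 0.30, ADAM12 by -3.01, ADAM15 by -1.14 and FRMD8 by 1.85. In the cascades, GAB1 differed by -0.73, NRAS by -1.45, MAPK3 by -1.19, PIK3CA by 1.13 and PIK3CB by 0.63. The regulators ERRFI1 and LRIG3 differed by -2.47 and -0.98. Among genes that report on ERK activity, DUSP4 differed by -1.83, DUSP5 by 0.89, ETV4 by -2.93 and PHLDA1 by -1.07. With 81.2% of all genes called in this contrast, a difference between the depletions was the usual outcome. Groups held 3 libraries, so single libraries were not tested as outliers.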

How the results depend on the processing

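In shARNT against shControl, AREG, AREGB, their sum, HBEGF, TGFA, NRG1, EGFR and ERBB3 kept direction and call under every alternative tried. ERBB2 became 0.020 under library size alone and missed a minimum fold change of 1.5. BTC was called under library size alone (0.95, adjusted p = 0.058) and without single libraries. Library size alone moved the share of higher among called genes from 49.5% to 60.5% in shARNT against shControl, from 50.3% to 55.8% in shBMAL1 against shControl and from 49.4% to 58.6% between the depletions. A minimum fold change of 1.5 left 29 pathway genes in shARNT and 15 in shBMAL1, and 8301, 3657 and 8176 of all genes in the 3 contrasts in place of 12723, 9852 and 12630. With 1 library left out, 8 to 9 members were called in shARNT against shControl, 6 to 8 in shBMAL1 against shControl and 6 to 7 between the depletions. Per kilobase of all annotated exons, the sum of AREG and AREGB in shBMAL1 was 48.0 and TGFA 41.2, and in shARNT TGFA was 5.20, EGFR 3.86, the sum 2.40 and NRG1 2.16. Without the filter EREG gave -0.24, 0.90 and -1.15 in the 3 contrasts and was not called.

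The replicate numbers of the labels did not pair the libraries. Deviations of same-numbered libraries correlated at -0.041 to 0.075 over 9 pairs, and those of different numbers at -0.078 to 0.094 over 18. With the replicate block, the sum of AREG and AREGB gave 0.76 in shARNT against shControl, and 8, 8 and 7 members were past the threshold in the 3 contrasts, against 8 in each without it. At under 50 counts per library, BTC and HBEGF have wide intervals.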
